A study of Mus musculus with 6 samples.

Results

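The guanylate-binding proteins (Gbp genes) are a family of large GTPases, and 10 of them, Gbp1 to Gbp10, were followed here in the distal colon of TNFR2 knockout and wildtype mice. Members were taken by symbol, and 10 of the 23108 named rows of the expression table matched. The family was chosen by its values in this same comparison, the FPKM of knockout against wildtype colon, in which Gbp1 stood out. The animals were 3 TNFR2-/- males and 3 wildtype males, all aged 8 weeks and all labelled C57Bl/6, with 1 mRNA-enriched colon library per animal. TNFR2 is the second receptor for tumor necrosis factor and is encoded by Tnfrsf1b. The sources used here do not give the part of Tnfrsf1b deleted, how the knockout was made, any backcrossing or whether the wildtype mice were littermates. Expression is in FPKM, which corrects fragment numbers for the length of each transcript and the depth of each library, so that levels can be compared between genes.

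Gbp genes are induced by interferons, most strongly by interferon gamma, in part through the transcription factor Irf1. Their proteins assemble on the vacuoles of intracellular parasites and on bacteria that reach the cytosol, where they help to break membranes and to bring in the caspases of the inflammasome. In the gut both epithelial cells and macrophages make them. Some members carry a C-terminal signal for prenylation, a lipid anchor that holds the protein to membranes. In mice the genes lie in a cluster on chromosome 3 and another on chromosome 5, and inbred mouse strains have long been known to differ in how far interferon induces Gbp1. Mouse Gbp1 is named Gbp2b in the RefSeq and GENCODE annotations.

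The 5 chromosome 3 members lie in the order Gbp5, Gbp7, Gbp3, Gbp1 and Gbp2 over 141.0 kb, and the end of Gbp1 (142594816 to 142619179 in RefSeq, GRCm38.p6) is 1483 bases from the start of Gbp2 (142620663 to 142638008). The 5 chromosome 5 members, Gbp8, Gbp9, Gbp4, Gbp10 and Gbp6, lie over 283.0 kb. Promoter sequences of Gbp1 and Gbp2 are shown because these neighbours are close in sequence, while Gbp1 separated the genotypes and Gbp2 did not. Each is from RefSeq, GRCm38.p6, plus strand, from 250 bases before to 50 bases after the start that the RefSeq promoter table uses. That start is 142594847 for Gbp1, 31 bases after the gene's first annotated base, and 142620663 for Gbp2, the gene's first base. Capitals mark TTTC, 2 bases of any kind and TTTC again, a core of the interferon-stimulated response element, which interferon regulatory factors bind.

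Gbp1, chr3:142594597-142594896: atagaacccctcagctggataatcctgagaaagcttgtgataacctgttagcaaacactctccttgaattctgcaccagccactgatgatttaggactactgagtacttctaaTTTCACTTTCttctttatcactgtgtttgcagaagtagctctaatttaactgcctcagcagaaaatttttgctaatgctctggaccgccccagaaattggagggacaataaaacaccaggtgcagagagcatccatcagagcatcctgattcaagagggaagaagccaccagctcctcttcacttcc

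Gbp2, chr3:142620413-142620712: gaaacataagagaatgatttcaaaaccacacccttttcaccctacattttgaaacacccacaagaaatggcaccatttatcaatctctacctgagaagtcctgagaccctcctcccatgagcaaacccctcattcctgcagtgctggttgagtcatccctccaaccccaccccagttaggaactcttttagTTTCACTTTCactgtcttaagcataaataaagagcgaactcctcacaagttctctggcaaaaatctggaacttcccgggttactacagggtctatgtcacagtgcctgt

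Both promoters hold the same match, TTTCACTTTC. It begins 137 bases before that start in Gbp1 and 59 bases before it in Gbp2. On either strand, the core was found in 5 of the 6 promoters listed for the 5 chromosome 3 members, and in 3.44% of the 32851 promoters of the RefSeq table. The exception was the second of 2 promoters listed for Gbp3, whose first holds a pair of overlapping matches, TTTCAGTTTC 45 bases and TTTCTATTTC 39 bases before the start. Gbp5 and Gbp7 carry TTTCAATTTC 165 bases and TTTCAGTTTC 53 bases before theirs. TTCNNNGAA, a core of the gamma-activated site, was found in the promoters of Gbp5 and Gbp7, in none of those listed for Gbp1, Gbp2 and Gbp3, and in 8.3% of all promoters. No match of the 2 motifs overlapped the other. These are letter matches in the reference genome, and binding was not measured.

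The deposited table was checked first. Tnfrsf1b measured 1.17, 1.12 and 0.924 FPKM in the knockout libraries and 7.49, 8.20 and 8.17 FPKM in the wildtype libraries, lower in every library labelled knockout (log2 difference -2.11 ± 0.08 SE; limma, Benjamini-Hochberg adjusted p = 7.1e-05). Summed markers of colon epithelium lay between 6333 and 8451 FPKM in knockout and between 6065 and 8189 FPKM in wildtype libraries, so the labelled tissue was present in all 6. Relative depth, read from the steps between low values with wildtype library 1 as 1, was 1.02, 0.874 and 1.1 in the knockout libraries and 1.0, 1.02 and 0.736 in the wildtype libraries. Markers of skin and skeletal muscle were also present, in unequal amounts. Summed skin markers ranged from 102.8 to 1327 FPKM in knockout and from 581 to 1529 FPKM in wildtype libraries, and skeletal muscle markers from 176 to 2312 FPKM in knockout and from 3003 to 9780 FPKM in wildtype libraries, with knockout library 1 the lowest of the 6 in both. Macrophage markers summed to 424, 423 and 299 FPKM in knockout and 556, 492 and 520.3 FPKM in wildtype libraries, and endothelial markers to 84.1, 104 and 78.3 FPKM in knockout and 137, 101 and 134 FPKM in wildtype libraries. Of the macrophage markers 8 of 9 tested rows had negative differences. The genotypes did not overlap for 8 of the 9 (88.9%, beside 21.8% of all tested rows). None was called (limma, lowest Benjamini-Hochberg adjusted p = 0.227), beside 0.288% of all tested rows, and none of the 9 in the file was at 0 in all libraries. Of the endothelial markers 10 of 10 tested rows had negative differences, 5 did not overlap (50.0%), and none was called (limma, lowest Benjamini-Hochberg adjusted p = 0.18). In bulk tissue, fewer cells of a type and less RNA per cell cannot be told apart.

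Gbp1, which helps to control Toxoplasma and other intracellular microbes in mice, was the member that separated the genotypes. It measured 12.3, 10.4 and 10.7 FPKM in the knockout libraries and 0.331, 0.336 and 0.216 FPKM in the wildtype libraries. All knockout values were far above all wildtype values, and neither genotype had a library that stood between them. The means were 11.1 ± 0.996 FPKM in knockout and 0.294 ± 0.0680 FPKM in wildtype colon (SD, n = 3 each), a ratio of 37.8. On the log2(FPKM + 1) scale the difference, knockout minus wildtype, was 3.23 ± 0.09 (SE), and this scale understates the change of a gene so low in wildtype. Few fragments stand behind each wildtype value of Gbp1, and as their number cannot be read from FPKM, the counting error of the ratio is unknown. The authors' deposited table gives a log2 fold change of 5.25 for Gbp1 from group values. Because this contrast chose the family, the member values are a description and carry no p-value here.

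**Figure D1:**
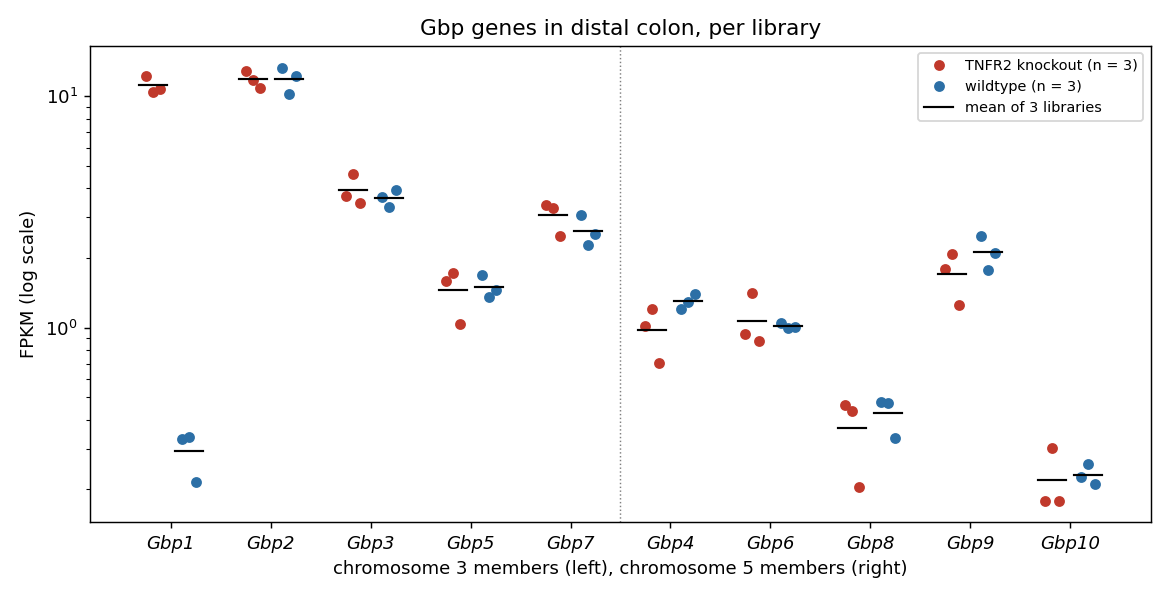
FPKM of each Gbp gene on a log axis, with 1 point per library, knockout in red to the left and wildtype in blue to the right of each gene, and a bar at the mean of 3 libraries. Gbp1 lies between 10.4 and 12.3 FPKM in knockout and between 0.216 and 0.336 FPKM in wildtype libraries, while the points of the other 9 genes overlap between the genotypes.

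Of the 10 members, 8 averaged 0.5 FPKM or more across all 6 libraries and entered the fit over all genes. Gbp1 reached that minimum only through the knockout libraries. At a Benjamini-Hochberg adjusted p under 0.05 in limma, 1 member, Gbp1, was called, against 0.288% of all 14564 tested rows, of which 0.185% were higher and 0.103% lower in knockout. The authors' deposited table marks Gbp1 alone of the 10 members as significant, against 1.02% of all rows. Knockout and wildtype libraries did not overlap for 1 of the 10 members, and for 21.8% of all tested rows. The mean was higher in knockout for 4 of the 10 members, and for 42.8% of all tested rows. Since the family was chosen for Gbp1, nothing is read from these shares. The difference of Gbp1 lay between 3.16 and 3.27 when each library was left out in turn. It was 3.11 without knockout library 1 and wildtype libraries 1 and 3, which held the lowest and the highest skin marker sums, a setting chosen after seeing the data.

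Gbp2, a prenylated member recruited to Toxoplasma vacuoles and to cytosolic bacteria, was the highest in both genotypes. It measured 12.8, 11.8 and 10.8 FPKM in knockout libraries and 13.3, 10.3 and 12.2 FPKM in wildtype libraries. All knockout values lay inside the wildtype range, with means of 11.8 ± 1.01 FPKM in knockout and 11.9 ± 1.53 FPKM in wildtype colon (SD, n = 3 each) and a difference of -0.01 ± 0.11 on the log2(FPKM + 1) scale (SE). Upper quartile scaling of the libraries gave 0.03 ± 0.11. Gbp1 stood at 0.956, 0.883 and 0.991 of the level of Gbp2 in the knockout libraries and at 0.0249, 0.0327 and 0.0177 of it in the wildtype libraries.

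The other chromosome 3 members overlapped between the genotypes as well. Gbp3 measured 3.72, 4.63 and 3.46 FPKM in knockout and 3.68, 3.31 and 3.94 FPKM in wildtype libraries. Gbp7, implicated in mice in defence against intracellular bacteria, measured 3.41, 3.29 and 2.49 FPKM in knockout and 3.06, 2.27 and 2.54 FPKM in wildtype libraries. Gbp5, which promotes inflammasome assembly, measured 1.60, 1.72 and 1.04 FPKM in knockout and 1.69, 1.36 and 1.45 FPKM in wildtype libraries. Their log2 differences were 0.08 ± 0.11 for Gbp3, 0.16 ± 0.13 for Gbp7 and -0.04 ± 0.13 for Gbp5 (SE). For each of these genes the SD over the knockout libraries was larger than the gap between the genotype means.

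The chromosome 5 members were low in both genotypes. Gbp9, which also localises to Toxoplasma vacuoles, was the highest of them, at 1.80, 2.08 and 1.25 FPKM in knockout and 2.49, 1.775 and 2.10 FPKM in wildtype libraries. Gbp4 measured 1.02, 1.21 and 0.706 FPKM in knockout and 1.21, 1.29 and 1.40 FPKM in wildtype libraries, so that its highest knockout value only just reached its lowest wildtype value. Its ratio of means, 0.754, was the lowest of the family, and its log2 difference was -0.22 ± 0.12 (SE), beside -0.21 ± 0.14 for Gbp9. Gbp6, implicated with Gbp10 in defence against intracellular bacteria in mice, measured 0.935, 1.41 and 0.876 FPKM in knockout and 1.05, 0.993 and 1.00 FPKM in wildtype libraries, a log2 difference of 0.03 ± 0.11 (SE). Gbp8 and Gbp10 stayed under the minimum for the fit. Gbp8 measured 0.463, 0.436 and 0.206 FPKM in knockout and 0.477, 0.470 and 0.334 FPKM in wildtype libraries, and Gbp10 0.179, 0.303 and 0.179 FPKM in knockout and 0.226, 0.257 and 0.212 FPKM in wildtype libraries. At such levels few fragments stand behind each value, and their number cannot be read from FPKM. Over the 7 tested members besides Gbp1, log2 differences ran from -0.22 to 0.16, where the median of all tested rows was -0.03.

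The order of levels differed between the genotypes in the place of Gbp1 and in Gbp6 and Gbp4, which changed places. In knockout colon the order by mean was Gbp2, Gbp1, Gbp3, Gbp7, Gbp9, Gbp5, Gbp6, Gbp4, Gbp8 and Gbp10. In wildtype colon it was Gbp2, Gbp3, Gbp7, Gbp9, Gbp5, Gbp4, Gbp6, Gbp8, Gbp1 and Gbp10. Gbp1 ranked 2 in knockout, where its libraries overlapped those of Gbp2, and 9 in wildtype, where they overlapped those of Gbp8 and Gbp10. Other neighbours whose libraries overlapped were Gbp9 and Gbp5, Gbp5 and Gbp6, Gbp6 and Gbp4, and Gbp8 and Gbp10 in knockout, and Gbp7 and Gbp9, and Gbp5 and Gbp4 in wildtype colon. The remaining neighbours in each order did not overlap.

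Summed over the 10 genes, the level was 38.2, 37.3 and 31.8 FPKM in the knockout libraries and 27.5, 22.3 and 25.4 FPKM in the wildtype libraries. Without Gbp1 the sums were 26.0, 26.9 and 21.0 FPKM in knockout and 27.2, 22.0 and 25.2 FPKM in wildtype libraries, which overlap, with means of 24.6 ± 3.15 FPKM in knockout and 24.8 ± 2.60 FPKM in wildtype (SD, n = 3 each). Gbp1 made up 31.3 ± 3.01% of the summed level in knockout and 1.19 ± 0.328% in wildtype libraries. The share of Gbp2 was 33.1 ± 1.29% in knockout and 47.5 ± 1.28% in wildtype, although its own level overlapped between them. The chromosome 5 members together gave 4.399, 5.44 and 3.22 FPKM in knockout and 5.45, 4.79 and 5.05 FPKM in wildtype libraries.

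**Figure D2:**
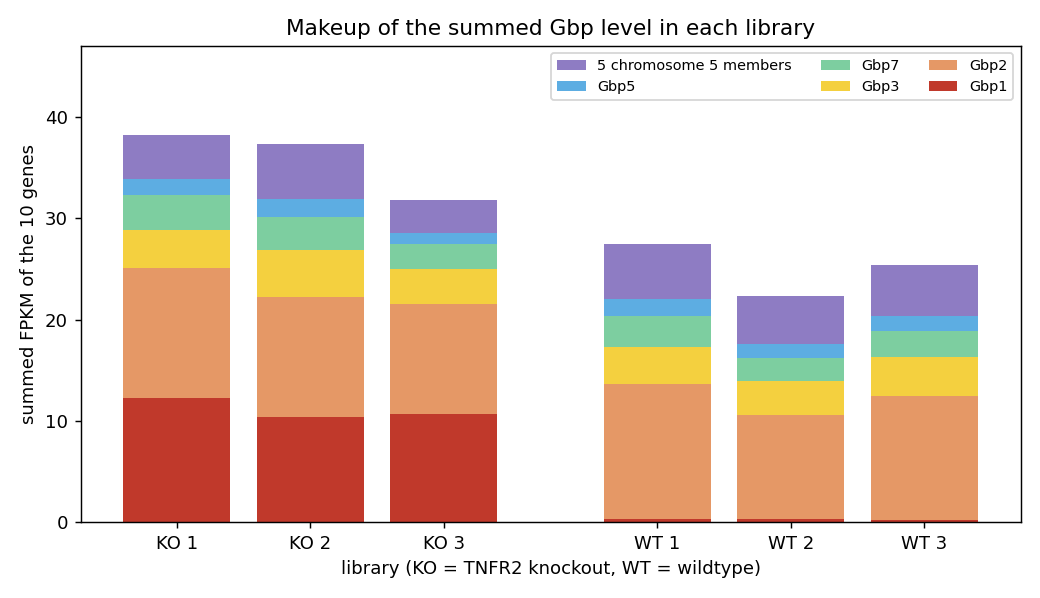
Summed FPKM of the 10 Gbp genes in each library, stacked by gene, with the 3 knockout libraries on the left and the 3 wildtype libraries on the right. The Gbp1 segment is 10.4 to 12.3 FPKM high in knockout and at most 0.336 FPKM high in wildtype bars, and the segments above it sum to 21.0 to 26.9 FPKM in knockout and 22.0 to 27.2 FPKM in wildtype libraries.

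Within the knockout group most members were lowest in the same library. Knockout library 3 was the lowest of the 3 knockout libraries for 9 of the 10 genes. The exception was Gbp1, where knockout library 2 was lowest by a small margin, at 10.4 FPKM beside 10.7 FPKM in library 3. Over all tested rows, knockout library 3 was the lowest of its group in 22.9%. Knockout library 2 was highest for 6 genes and knockout library 1 for 4, against 29.2% and 39.3% of all tested rows. The coefficient of variation over the 3 libraries was larger in knockout than in wildtype for 8 of 10 members. The share of all tested rows was not computed, so nothing particular to the family is read from this count. Gbp6 had 27.2% in knockout and 2.9% in wildtype, and Gbp4 26.0% in knockout and 7.25% in wildtype. The exceptions were Gbp1, with 8.94% in knockout and 23.1% in wildtype, and Gbp2, with 8.57% in knockout and 12.8% in wildtype. Among the wildtype libraries, library 1 was highest and library 2 lowest for 6 members each, against 32.8% and 36.5% of all tested rows. Summed macrophage and endothelial markers were also lowest in library 3 among the knockout libraries and in library 2 among the wildtype libraries. Summed colon epithelium markers were lowest elsewhere, in knockout library 2 and wildtype library 1. They were 8451, 6333 and 8193 FPKM in knockout and 6065, 8189 and 6673 FPKM in wildtype libraries. Summed T and NK cell markers were lowest in library 3 of each genotype, at 4.33 FPKM in knockout and 7.28 FPKM in wildtype. The part of these cell types in the Gbp values was not tested. This co-variation was noticed in the data, and members share libraries, so it is a description.

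**Figure D3:**
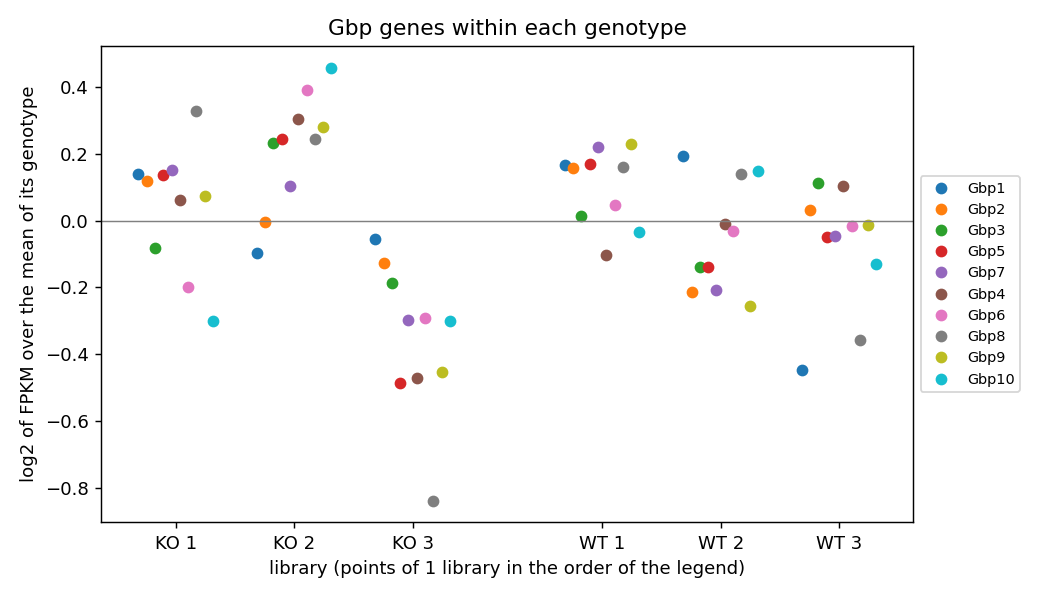
log2 of each member's FPKM over the mean of its own genotype, with 1 point per gene and library, knockout libraries on the left. In knockout library 3 all 10 points lie below 0, and in the wildtype libraries no library lies on the same side for all genes.

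How far the values of 1 member can hold reads of another was read from the transcript sequences. Stated reads were 50 bp long, so each 50-base window of the member's transcript with the longest coding sequence (GENCODE M21) was looked up in the transcripts of every other gene. Of the windows of Gbp1, 98.2% occurred in no other gene, and the 51 shared windows were all shared with Gbp2, whose coding sequence has 82.5% of aligned bases in common with that of Gbp1. For Gbp2, Gbp3 and Gbp5, 97.9%, 95.2% and 99.1% of windows were their own, and for Gbp7, Gbp4, Gbp9 and Gbp8 87.2%, 87.2%, 90.4% and 78.8%. Gbp6 and Gbp10 share 98.4% of aligned coding bases, and 9.82% and 17.5% of their windows were their own, while 90.2% and 79.2% occurred in the annotated gene Gm43302. The sources used here do not say how reads with several matches were divided, so the levels of Gbp6 and Gbp10 are uncertain. So is the wildtype level of Gbp1, a mean of 0.294 FPKM beside 11.9 FPKM for Gbp2, since the shared windows can hold reads of Gbp2. The ratio, share and rank of Gbp1 that rest on its wildtype level carry the same uncertainty. The part of Gbp2 reads in it was not tested.

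Along chromosome 3, the 5 nearest tested rows on each side of the cluster were not called (limma, lowest Benjamini-Hochberg adjusted p = 0.165), while 3 of these 10 had an unadjusted p under 0.05, beside 16.2% of all tested rows. Ccbl2, a kynurenine aminotransferase gene and the next tested row after Gbp2, measured 2.78, 2.32 and 2.95 FPKM in knockout and 3.12, 2.19 and 2.27 FPKM in wildtype libraries. Gtf2b, a general transcription factor of RNA polymerase II, measured 27.2, 24.5 and 25.2 FPKM in knockout and 28.7, 28.6 and 28.1 FPKM in wildtype libraries. The kinase gene Pkn2, Lmo4, Metap1, Eif4e and Tspan5 overlapped between the genotypes. The genotypes did not overlap for 4 of the 10, beside 21.8% of all tested rows. These were Rap1gds1, Pdlim5, Gtf2b and Hs2st1, each with the lower values in knockout and log2 differences of -0.20 ± 0.06, -0.38 ± 0.16, -0.15 ± 0.07 and -0.31 ± 0.07 (SE). Of these, Pdlim5 alone was highest in wildtype library 1 and lowest in knockout library 1, as summed skeletal muscle markers were. The part of muscle in these values was not tested. On chromosome 5 none of the 10 neighbours was called either (limma, lowest Benjamini-Hochberg adjusted p = 0.223), and 1 had an unadjusted p under 0.05. Among them are Lrrc8b, Lrrc8c and Lrrc8d, subunits of volume-regulated anion channels, Sparcl1, Pkd2, BC005561, Zfp951, Abcg3, Zfp326 and Zfp644, and of these Lrrc8c alone did not overlap, at 2.59, 2.33 and 2.31 FPKM in knockout and 3.41, 3.00 and 3.13 FPKM in wildtype libraries.

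In a wider window of 15 Mb on each side of Gbp1, 3 of 118 tested rows were called, Gbp1 included, which is 2.54% beside 0.288% of all tested rows. No row within 15 Mb of the chromosome 5 cluster was called, of 211 (limma). An unadjusted p under 0.05 was found for 26 of the 118 rows (22.0%) around Gbp1 and 28 of the 211 rows (13.3%) around the chromosome 5 cluster, beside 16.2% of all tested rows. The window was chosen with its called genes known, so its share is a description. Adh1, an alcohol dehydrogenase that also acts on retinol, begins 4.32 Mb before Gbp1 and measured 1386, 1217 and 1372 FPKM in knockout and 633, 718 and 631 FPKM in wildtype libraries. Ccdc109b, a subunit of the mitochondrial calcium uniporter named Mcub in RefSeq, begins 12.7 Mb before Gbp1 and measured 0.959, 1.14 and 0.996 FPKM in knockout and 3.62, 3.41 and 3.55 FPKM in wildtype libraries. Their log2 differences were 1.00 ± 0.09 and -1.16 ± 0.08 (SE; limma, Benjamini-Hochberg adjusted p = 0.00691 and 0.0017), so the called genes of the window did not share a direction. Ccdc109b passed whichever library was left out (adjusted p at most 0.022), and Adh1 did not pass without wildtype library 3 or without knockout library 3 (adjusted p up to 0.0669), nor without knockout library 1 and wildtype libraries 1 and 3 together. Mir186, a microRNA row picked once its values were known, had a difference of 4.13 ± 2.09 (SE) and was not called (limma, Benjamini-Hochberg adjusted p = 0.4). It is listed at 0 in knockout library 1 and at 146 and 57.8 FPKM in the other knockout libraries, against 0.273, 0.267 and 0 FPKM in wildtype libraries.

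**Figure D4:**
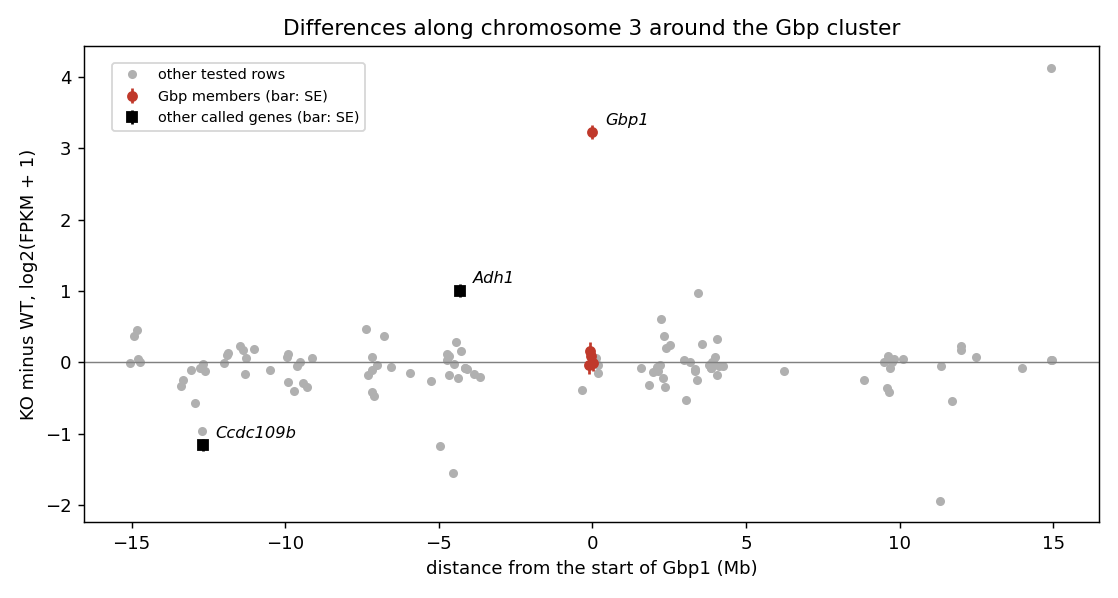
Difference between knockout and wildtype in log2(FPKM + 1) for the 118 tested rows within 15 Mb of Gbp1, against distance from the start of Gbp1 in Mb, with Gbp members in red, other called genes as black squares (bars: SE) and all other rows in grey. Gbp1 lies at 3.23 while the other 4 red points lie between -0.04 and 0.16, and the grey point at 4.13 is Mir186, which was not called.

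Genes that act before, beside or after the family were examined through 6 lists, 74 genes in all, of which 63 rows were tested. Of these lists, those of interferon ligands and receptors and of interferon signal transducers hold the pathway that induces the family. The rest hold other GTPases, prenylation enzymes, and inflammasome and autophagy genes. In limma none was called over all genes, 0 of 63 beside 0.288% of all tested rows, and 6 had an unadjusted p under 0.05, 3 higher and 3 lower in knockout (9.52%, beside 16.2% of all tested rows). None was called under any of the 15 other settings. The median log2 difference of the 63 was 0.03, beside -0.03 over all tested rows. It was 0.09 over the 5 tested rows of ligands and receptors and 0.11 over the 18 of signal transducers. A missed threshold does not show equal levels.

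Of the interferon ligands and receptors 5 rows were tested. Ifngr1 and Ifngr2, the chains of the interferon gamma receptor, measured 152, 134 and 138 FPKM and 87.4, 77.5 and 85.9 FPKM in knockout libraries, against 109, 139 and 118 FPKM and 66.3, 84.8 and 70.7 FPKM in wildtype libraries, and both overlapped between the genotypes. Ifng, the ligand, was picked once its values were known and was measured at 0.0316, 0.0368 and 0 FPKM in knockout and 0, 0.0786 and 0 FPKM in wildtype libraries. Of the 18 signal transducers tested, 12 had a positive and 6 a negative difference, with a median of 0.11 on the log2(FPKM + 1) scale. Irf1, a transcription factor that drives Gbp genes, measured 75.2, 64.6 and 68.2 FPKM in knockout and 51.6, 69.9 and 53.9 FPKM in wildtype libraries, with wildtype library 2 inside the knockout range. Irf2 measured 51.9, 51.4 and 49.4 FPKM in knockout and 41.0, 48.7 and 44.6 FPKM in wildtype libraries (limma, Benjamini-Hochberg adjusted p = 0.371 for Irf1 and 0.319 for Irf2).

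Other GTPases listed as interferon-inducible showed no difference of the size seen in Gbp1. Their 9 tested rows had log2 differences between -0.24 and 0.35 with a median of -0.10, and the lowest adjusted p was 0.274 (limma, Benjamini-Hochberg). Gvin1 stands in this list in separate rows, at 0.33 and 0.35, the upper end of that range. Irgm1, which regulates the immunity-related GTPases on membranes, measured 16.6, 15.2 and 16.5 FPKM in knockout and 14.9, 15.7 and 13.997 FPKM in wildtype libraries. The row that names both Igtp and Irgm2 measured 13.0, 11.5 and 12.2 FPKM in knockout and 12.7, 12.1 and 12.6 FPKM in wildtype libraries. Summed over the list, levels were 62.6, 58.8 and 55.8 FPKM in knockout and 55.6, 59.8 and 53.6 FPKM in wildtype libraries. Of the 9 tested other GTPases of the dynamin superfamily, the most highly expressed were Dnm2 and Mfn2, a mitochondrial fusion GTPase. Dnm2 measured 49.6, 42.3 and 45.8 FPKM in knockout and 41.9, 48.5 and 46.3 FPKM in wildtype libraries. Mfn2 measured 26.9, 26.8 and 28.9 FPKM in knockout and 40.0, 33.8 and 33.4 FPKM in wildtype libraries, which did not overlap (limma, Benjamini-Hochberg adjusted p = 0.965 for Dnm2 and 0.199 for Mfn2). Non-overlap held for 2 of the 9 rows (22.2%, beside 21.8% of all tested rows). The summed list did not overlap either, at 180.5, 172.0 and 178.7 FPKM in knockout and 189.8, 190.1 and 186.5 FPKM in wildtype libraries. Of the 9 rows Mfn2 had the widest gap between genotype means, 27.5 FPKM in knockout and 35.7 FPKM in wildtype. Its highest value was in wildtype library 1, which also had the highest sum of skeletal muscle markers. The part of muscle in these values was not tested.

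Enzymes that attach or trim the prenyl anchor differed little, with 6 tested rows between -0.06 and 0.14 on the log2 scale. Fnta, a subunit of the farnesyl and geranylgeranyl transferases, measured 31.5, 32.1 and 34.6 FPKM in knockout and 34.0, 30.8 and 31.5 FPKM in wildtype libraries, and the processing protease gene Rce1 21.5, 15.9 and 20.2 FPKM in knockout and 18.8, 20.9 and 19.3 FPKM in wildtype libraries. The 16 tested rows of inflammasome and autophagy genes that act with Gbp proteins had differences between -0.11 and 0.27, with a median of 0.07, and 2 did not overlap between the genotypes (12.5%, beside 21.8% of all tested rows). Sqstm1, an autophagy receptor, measured 147, 152 and 143 FPKM in knockout and 158, 161 and 158 FPKM in wildtype libraries. The row that names Ctdnep1 and Gabarap measured 335, 293 and 330.0 FPKM in knockout and 309, 346 and 330.3 FPKM in wildtype libraries (limma, Benjamini-Hochberg adjusted p = 0.429 for Sqstm1 and 0.835 for the row of Ctdnep1 and Gabarap).

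**Figure D5:**
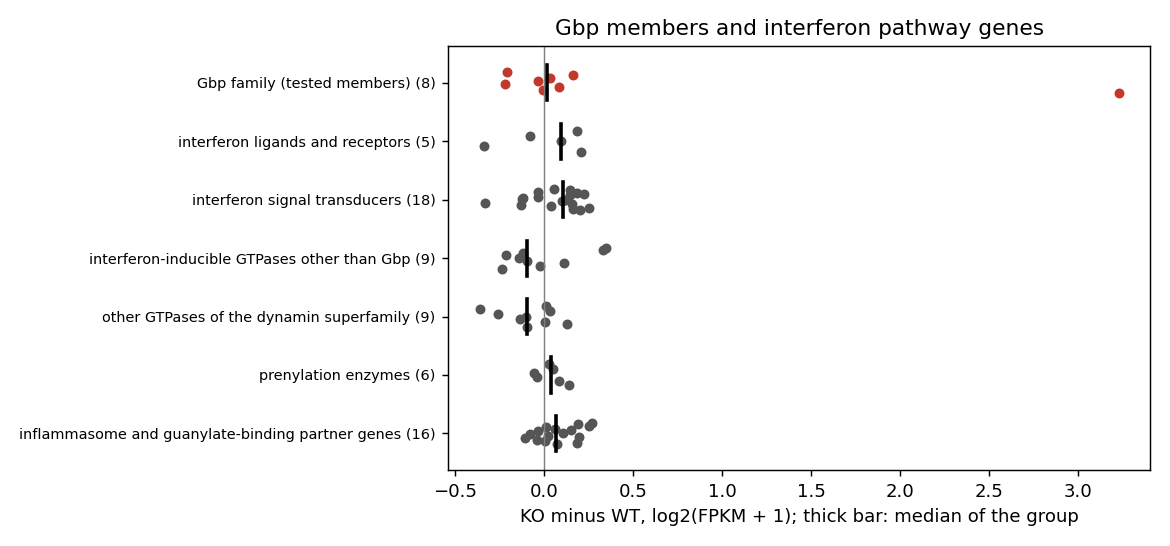
Difference between knockout and wildtype in log2(FPKM + 1) for the 8 tested Gbp members in red, at the top, and for the tested rows of the 6 gene lists in grey, 1 point per row, with a thick bar at each median. Gbp1, at 3.23, lies to the right of all other points, which lie between -0.36 and 0.35.

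Genes whose values ran most like those of Gbp1 over the 6 libraries, by Pearson's r of log2(FPKM + 1), were Cdc25c, Slc37a2, Cdh26, Ccdc163 and Lnx1, with r between 0.99 and 0.995. The libraries fall into the 2 genotypes for Gbp1, so this likeness is mostly that of a genotype difference, and of the 5 genes Slc37a2 alone was called (limma, Benjamini-Hochberg adjusted p = 0.00204). Slc37a2, a sugar phosphate transporter gene, averaged 74.1 ± 9.58 FPKM in knockout and 26.1 ± 1.07 FPKM in wildtype colon (SD, n = 3 each). For Gbp2 the most alike were Tmem231, Bbs9, Ifitm6, Sh3bgrl and Zer1, with r between 0.952 and 0.989, all with overlapping genotypes. Both are rankings over 6 libraries that share depth and tissue makeup, and carry no test.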

How the data were processed

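Colon mRNA from 3 TNFR2 knockout and 3 wildtype mice was analysed, with groups and replicate numbers from the sample titles. Tophat2 and Bowtie2 aligned the reads, and Cufflinks and Cuffdiff 2 gave the authors' values and tests, per the labels. The submitters' processing notes name the build mm10. Values are FPKM per library, per the file headers; the authors' deposited group FPKM and log2 fold changes are quoted only where named, and their deposited p-values were not used. The sources used here do not give software releases, annotation, strandedness or the scaling of libraries. Stated depth averaged 50M reads per sample; fragment totals are unknown, and no counting interval was computed.

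The family and the gene lists were chosen with earlier results of these data known. The 14564 named rows that averaged 0.5 FPKM or more across all 6 libraries entered limma 3.58.1 (R 4.3.3) on the log2(FPKM + 1) scale, with an intensity trend, robust moderation and no covariate. A call needed a Benjamini-Hochberg adjusted p under 0.05. The procedure was tested on simulated data with errors independent between genes. Real libraries share tissue makeup across genes, so nothing is read from that test. Unnamed rows (6.13% of rows, 17.7% of summed FPKM) were left out, and 1 gene of the lists is not reported by name here. P-values measure the spread between 3 animals a group. Alternatives were another pseudocount, filters, scaling and moderation, a replicate block, a skin covariate, rows without small RNAs and each library left out. Named were all members, the 5 nearest tested rows on each side of each cluster, called rows within 15 Mb of Gbp1, called list genes or else the 2 most highly expressed of each list, and the 5 genes most like Gbp1 and Gbp2. Marker lists are given as sums: beside those in the text, summed T and NK cell markers lay between 4.33 and 7.45 FPKM in knockout and between 7.28 and 8.80 FPKM in wildtype libraries. Positions are from RefSeq, GRCm38.p6, the assembly of mm10; 99.6% of 19796 rows matched by symbol overlapped their RefSeq position. Other tools were Biopython 1.88 for alignments, matplotlib 3.10.9 for plots, and numpy 2.4.6 and pandas 2.3.3 under Python 3.11.15.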

Additional observations from a re-analysis of the deposited data

How the results depend on the processing

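Over the reported fit and 15 other settings, 14 planned and 1 added after seeing the data, the log2 difference of Gbp1 lay between 3.11 and 3.27, except that a pseudocount of 0.1 in place of 1 gave 4.84. The largest of any other tested member was 0.40 in size. Since these values chose the family, they describe it and support no call. The 8 tested members, Gbp1 included, had 116 values under the other settings. Of these, 9 had a changed sign, all of them among the small differences of Gbp2, Gbp3, Gbp5 and Gbp6. The count of calls over all genes was 42 as reported, 22 without small RNA rows, 26 with the skin covariate, 24 with a replicate block and between 21 and 74 when single libraries were left out. The extremes and the other large shifts were 21 without knockout library 3, 22 without wildtype library 3, 27 without wildtype library 1 and 74 without wildtype library 2. Without wildtype libraries 1 and 3 and knockout library 1 it was 130, in a fit with a lone wildtype library assumed to vary like the knockout libraries. The cause of these shifts was not tested, apart from fewer rows or libraries in those so built. Within 15 Mb of Gbp1, leaving out single libraries gave 2 to 4 called rows.

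The replicate numbers gave no sign of pairing: deviations of knockout and wildtype libraries with the same number correlated at -0.375, -0.337 and 0.209 over genes, and library 3 alone correlated best with its own number. With the replicate block 1 row, Gbp1, was called within 15 Mb, against 3 without it, and the adjusted p was 0.071 for Ccdc109b and 0.185 for Adh1 (limma, Benjamini-Hochberg). Depth limits the lowest values most, those of Gbp10, Gbp8 and, in wildtype colon, Gbp1.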

Other observations

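Gbp11, a chromosome 5 relative annotated as a transcribed pseudogene in RefSeq and not counted among the members, was measured at 0.0772, 0.0450 and 0.0400 FPKM in the knockout libraries and at 0.0550, 0.0215 and 0.0198 FPKM in the wildtype libraries. These values overlap, and all lie below those of Gbp10, the lowest member.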
